A study of Mus musculus with 6 samples.

Results

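Cytosolic heat shock chaperones were examined after exposure of SVEC4-10 cells to nattokinase; the labels call this immortal mouse line endothelial. The genes are Hspa1a, Hspa1b, Hspa8, Hsph1, Hsp90aa1, Hsp90ab1, Dnaja1, Dnajb1, Dnajb4 and Bag3, taken by Ensembl identifier with GENCODE M21 names, which makes 10 of the 55536 genes listed. Nattokinase is a serine protease of Bacillus subtilis that cleaves fibrin. RNA was sequenced from 3 samples treated with nattokinase for 24 hours and from 3 untreated control samples, all in serum-containing medium, and the labels name no dose. Whether replicates came from separate dishes is not stated, and the p-values therefore cover sample-to-sample spread that may be technical.

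These chaperones keep cytosolic proteins folded. J-domain proteins such as Dnaja1, Dnajb1 and Dnajb4 bring unfolded clients to HSP70 proteins and stimulate their ATPase, nucleotide exchange factors such as Hsph1 and Bag3 make HSP70 release them, and HSP90 proteins complete the maturation of kinases, steroid receptors and other clients. Hspa8 and Hsp90ab1 are the forms made in unstressed cells, whereas Hspa1a, Hspa1b and Hsp90aa1 are known for their induction by heat shock factor 1 when proteins misfold. In endothelium, HSP90 is known as a partner of nitric oxide synthase.

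Nattokinase-treated cells held more Dnajb4 mRNA, 1.40-fold the control level, and none of the other members passed the test. The heat-inducible Hspa1b lay between 3.59 and 5.21 FPKM over all libraries, and Hspa1a was at 0 or 1 read per library. Bag3, Dnajb1, Hsph1 and Hsp90ab1 had overlapping groups, with differences whose 95% confidence intervals lay between −0.13 and 0.17 on the log2 scale. Dnaja1, Hsp90aa1, Hspa8 and Hspa1b had higher values in all 3 treated libraries than in any control, by 1.08-fold to 1.19-fold, without passing the test. For Hsp90aa1 and Hspa1b this held in the values as deposited but not after rescaling to protein-coding totals.

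Values are FPKM, reads scaled by exon length and by the assigned reads of the library, and log2 fold changes are nattokinase minus control on the log2(FPKM + 1) scale, which understates changes of low genes. The test was limma over the 10913 genes that reached 1 FPKM in 3 or more libraries, with a Benjamini-Hochberg adjusted p under 0.05 as threshold. Of the 10 chaperone genes 9 reached that filter, all but Hspa1a. Of these, 1 was higher and 0 were lower, against 5.61% of all tested genes higher and 3.24% lower, or 8.85% in either direction. With an unadjusted p under 0.05, 5 were higher and 0 lower, against 22.9% of all genes in either direction, and limma-voom on recovered reads called 3 higher and 0 lower, against 7.99% of all genes higher and 4.23% lower in that fit. With a filter of 5 FPKM 2 members were higher and 0 lower, against 8.31% of the 7233 genes tested there higher and 4.29% lower. These 2 included Dnajb4, which reached 5 FPKM only in the treated libraries. The median log2 fold change of the 9 genes was 0.12, beside 0.012 over all tested genes.

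The libraries held between 15044780 and 18341373 assigned reads, with more in each treated library than in any control. An 18S-like transcript, CT010467.1, took 0.525% to 0.611% of reads in the nattokinase libraries and 1.85% to 2.89% in the controls, and its part in the small differences given here was not tested beyond a rescaling to protein-coding totals. Under that rescaling 478 genes were higher and 497 lower, against 612 and 354 with the values as deposited. The defining endothelial markers were nearly absent, with Tie1, Erg, Cldn5 and Emcn at 0 reads in all 6 libraries, and the 8 endothelial markers summed to 0.104 to 0.155 FPKM in treated and 0.0662 to 0.218 FPKM in control cells. Of 6 fibroblast and mural cell markers 5 had at least 1 FPKM in all libraries, and the 6 summed to 1753 to 1826 FPKM in treated and 1923 to 2069 FPKM in control cells. Of 5 leukocyte markers 0 had at least 1 FPKM in all libraries, with Ptprc, Adgre1 and Cd3e at 0 reads in each. The leukocyte markers summed to 2.04 to 2.73 FPKM in treated and 0.846 to 1.49 FPKM in control cells, higher in all treated libraries and carried by Cd68 with 16 to 63 reads per library, and their part in the results was not tested. Of 4 epithelial markers 1 had at least 1 FPKM in all libraries. The values are of bulk RNA, in which fewer cells making a transcript and less of it per cell cannot be told apart.

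**Figure D1:**
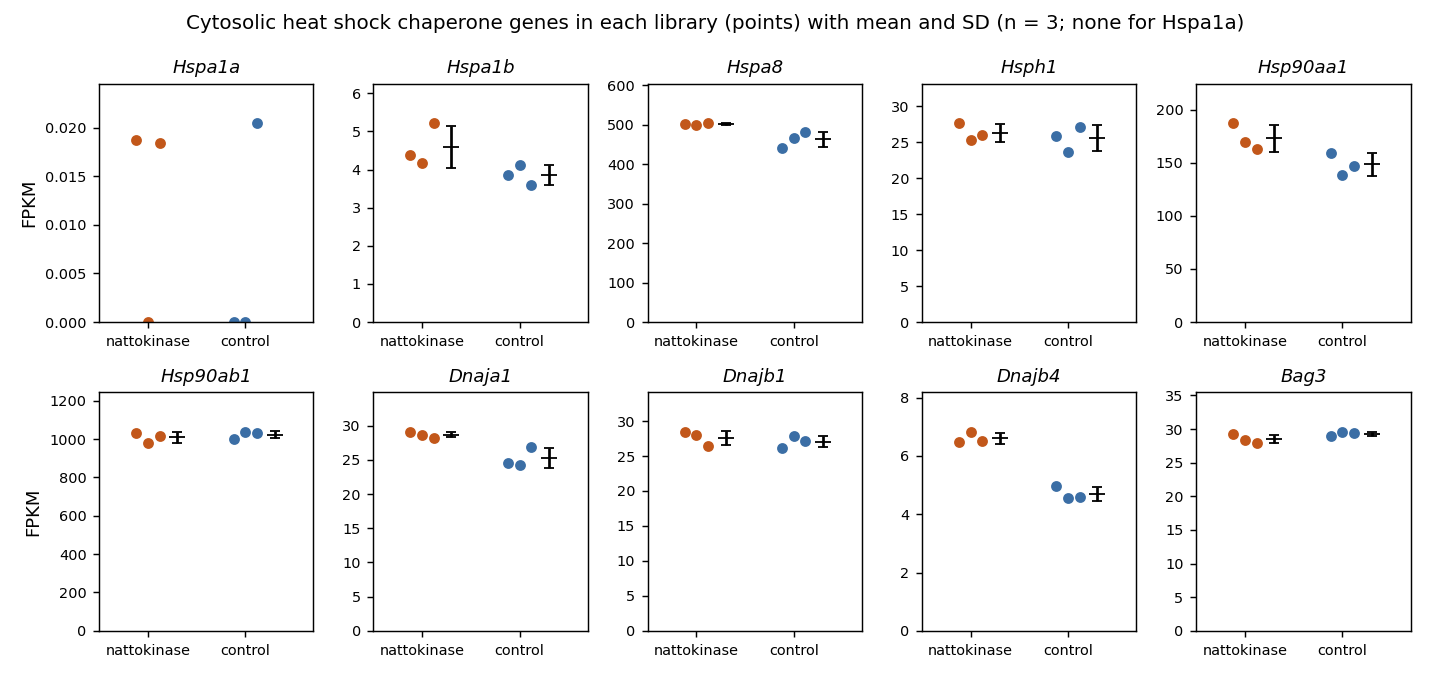
FPKM of the 10 chaperone genes in each of the 3 nattokinase libraries (orange) and 3 control libraries (blue), with a linear axis from 0 for each gene; the bar beside the points is the mean ± SD of 3 libraries and is left out for Hspa1a. Dnajb4 lies at 6.49 to 6.82 FPKM in treated and 4.54 to 4.98 FPKM in control cells, whereas Bag3, Dnajb1, Hsph1 and Hsp90ab1 overlap.

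Levels per length spanned a wide range within the family. Hsp90ab1 was the most abundant, with a mean of 1015 ± 22.4 FPKM over all libraries (SD, n = 6), followed by Hspa8 at 482 ± 24.5 FPKM and Hsp90aa1 at 161 ± 17.1 FPKM, and the ranges of these 3 genes did not meet. Bag3, Dnajb1, Dnaja1 and Hsph1 formed a group between 23.7 and 29.6 FPKM whose neighbouring ranges overlapped. Dnajb4, at 5.65 ± 1.06 FPKM, and Hspa1b, at 4.22 ± 0.558 FPKM, also overlapped in range. FPKM were computed over merged exons, and for Dnajb4 these make 8765 bases, whereas its longest protein-coding transcript has 2464 bases. The same pair of lengths is 8629 and 5622 bases for Dnaja1, 7266 and 3802 for Hsph1, and 4301 and 2394 for Hspa8, whereas both lengths are 2562 bases for Bag3. The FPKM of Dnajb4, Dnaja1, Hsph1 and Hspa8 may thus be understated, but which transcripts the cells made was not measured.

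Together the 10 genes took 0.668%, 0.641% and 0.651% of assigned reads in nattokinase libraries 1 to 3 and 0.614%, 0.625% and 0.638% in control libraries 1 to 3. Their summed level was 1848, 1769 and 1801 FPKM in treated and 1717, 1754 and 1776 FPKM in control cells. The read share was higher in all treated libraries, while the summed FPKM overlapped. Assigned reads include the 18S-like transcript, of which the controls held more. Protein-coding reads made up 98.3% to 98.39% of assigned reads in treated and 95.42% to 96.71% in control libraries. Among protein-coding reads alone the read share of the 10 genes overlapped between groups. Nattokinase library 2 (0.641% of assigned reads, 98.3% protein-coding) then lay below control library 3 (0.638% and 96.71%). Hsp90ab1 and Hspa8 made up 83.1% to 84.3% of the sum in treated cells and 84.0% to 85.6% in control cells.

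Dnajb4 encodes a J-domain cochaperone of HSP70 of the same class as Dnajb1. The gene lies on chromosome 3 from 152178511 to 152210302 (GRCm38, minus strand), and its exons overlap those of no other annotated gene. It had 6.49, 6.82 and 6.50 FPKM in the nattokinase libraries and 4.98, 4.54 and 4.60 FPKM in the controls, from 599 to 1047 reads per library. The lowest treated library was well above the highest control. The means were 6.60 ± 0.185 and 4.71 ± 0.236 FPKM in nattokinase and control cells (SD, n = 3 each), with a log2 fold change of 0.41 (SE 0.058, 95% confidence interval 0.29 to 0.54, limma adjusted p = 0.002). All 3 treated libraries showed the difference, and the log2 fold change was 0.38 after rescaling to protein-coding totals. It was between 0.39 and 0.45 when any 1 library was left out, with limma adjusted p of 0.013 or less.

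The stretches before both RefSeq start sites of Dnajb4 are shown because it was the member that rose and because the stretch before one of them holds a pair of heat shock element units. Heat shock factor binds arrays of short GAA units in alternating orientation. The core of 2 such units was searched as GAANNTTC or TTCNNGAA and that of 3 as GAANNTTCNNGAA or TTCNNGAANNTTC, where N is any base; these cover both strands, and every match of 3 units contains matches of 2. The 250 bases before each start site are given 5′ to 3′ on the minus strand of GRCm38.p6, from RefSeq, with the core of 2 units in capitals. The upper sequence is chr3:152193846-152194095 and the lower one chr3:152210084-152210333.
Dnajb4 start 1: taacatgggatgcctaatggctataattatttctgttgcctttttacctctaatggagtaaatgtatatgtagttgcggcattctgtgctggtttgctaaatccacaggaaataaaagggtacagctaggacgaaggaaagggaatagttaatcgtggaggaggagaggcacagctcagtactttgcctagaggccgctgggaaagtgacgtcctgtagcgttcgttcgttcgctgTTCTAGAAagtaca
Dnajb4 start 2: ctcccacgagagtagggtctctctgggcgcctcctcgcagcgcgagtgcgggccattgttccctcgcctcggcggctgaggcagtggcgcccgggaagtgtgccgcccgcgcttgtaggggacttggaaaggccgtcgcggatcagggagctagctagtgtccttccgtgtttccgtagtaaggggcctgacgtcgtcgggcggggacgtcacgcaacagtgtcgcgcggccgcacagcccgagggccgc
The deposited values are per gene, so reads of the 2 starts cannot be told apart.

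The remaining J-domain members differed less. Dnaja1, a farnesylated J-domain protein that works with Hspa8, had 29.1, 28.7 and 28.3 FPKM in treated and 24.6, 24.3 and 26.9 FPKM in control cells. All treated values were above all control values, by 1.14-fold in the means, with a log2 fold change of 0.18 (SE 0.050, 95% confidence interval 0.067 to 0.29, limma adjusted p = 0.056). It passed the test without control replicate 3 (limma adjusted p = 0.035), with a filter of 5 FPKM (0.039) and with limma-voom (0.017). Of its exon bases 931 overlap other genes, among them Smu1 on the opposite strand, which had 1466 to 1867 reads, and strand use is not stated. Dnajb1, a heat-inducible J-domain partner of HSP70, had 28.4, 28.0 and 26.5 FPKM in treated and 26.2, 27.9 and 27.1 FPKM in control cells. The groups overlapped, with a log2 fold change of 0.028 (95% confidence interval −0.078 to 0.13, limma adjusted p = 0.78), which became −0.0060 after rescaling to protein-coding totals.

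Among the HSP70 proteins, the form made in unstressed cells was far above the inducible ones. Hspa8 had 502, 499.6 and 504 FPKM in treated and 442, 466 and 481 FPKM in control cells. The treated libraries lay close together above all controls, with means of 502 ± 2.05 and 463 ± 19.4 FPKM in nattokinase and control cells (SD, n = 3 each; log2 fold change 0.12, SE 0.051, limma adjusted p = 0.21). Hspa1b had 4.39, 4.17 and 5.21 FPKM in treated and 3.85, 4.13 and 3.59 FPKM in control cells, from 166 to 268 reads per library. The groups were separated by the narrow gap between 4.17 and 4.13 FPKM, and the log2 fold change was 0.20 (SE 0.081, 95% confidence interval 0.020 to 0.38, limma adjusted p = 0.17). Hspa1a had 1, 0 and 1 reads in treated and 0, 0 and 1 reads in control cells. A count of 0 allows up to 3 reads, for counting error only. This makes 0.0577 to 0.0672 FPKM in the libraries with 0 reads, nattokinase 2 and controls 1 and 2.

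The reading of Hspa1a and Hspa1b is limited by their sequence. They are neighbouring genes of 1 exon on the minus strand of chromosome 17, at 34969190 to 34972156 for Hspa1a and 34956436 to 34959238 for Hspa1b, and their coding parts are 99.4% identical, with 8 differing bases and a gap of 3 bases. Of the stretches of 100 bases in the Hspa1b transcript 49.9% also occur in Hspa1a, and the handling of reads that match both is not stated. Summed as 1 gene, they still were not called. With at most 1 read per library in Hspa1a, this sum cannot show what the shared reads would change. The 250 bases before the start site of Hspa1b are shown because those of Hspa1a differ from them at only 3 positions, T44C, C47T and G249T, counted from 1 at the 5′ end with the Hspa1b base first. The stretch is chr17:34959239-34959488 (GRCm38.p6, minus strand, RefSeq), with the core of 2 heat shock element units in capitals, and the same core stands in Hspa1a.
Hspa1b: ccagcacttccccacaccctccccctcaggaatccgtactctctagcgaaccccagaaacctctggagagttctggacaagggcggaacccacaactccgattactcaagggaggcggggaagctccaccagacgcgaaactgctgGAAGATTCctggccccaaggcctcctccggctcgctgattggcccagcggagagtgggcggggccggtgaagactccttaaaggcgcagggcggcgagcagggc
Hspa8 shares 28.5% of its stretches of 100 bases with other genes, among them the lincRNA gene Gm26825 and several processed pseudogenes, of which Gm8355 had the most reads, 76 to 106 per library against 30151 to 39735 for Hspa8. Small nucleolar RNA genes also lie within its exons on the same strand.

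The exchange factors were close to control level. Hsph1, the HSP110 protein that releases nucleotide from HSP70, had 27.6, 25.3 and 25.9 FPKM in treated and 25.9, 23.7 and 27.2 FPKM in control cells. The groups overlapped, and the 95% confidence interval of the log2 fold change was −0.093 to 0.17 (limma adjusted p = 0.75), with a log2 fold change of −0.014 without control replicate 2. Bag3, which links HSP70 to small heat shock proteins and to autophagy, had 29.2, 28.4 and 28.0 FPKM in treated and 28.9, 29.6 and 29.4 FPKM in control cells. Its log2 fold change was −0.036 (95% confidence interval −0.13 to 0.058, limma adjusted p = 0.67). Of the 7 members whose windows could be searched, Hsph1 was the only one with a core of 3 heat shock element units. The core is shown in capitals within chr5:149636282-149636306 (GRCm38.p6, minus strand, RefSeq), just after the start sites of Hsph1.
Hsph1: tgcagaTTCTGGAAAGTTCtcctca

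Neither HSP90 gene passed the test. Hsp90aa1, the inducible form, had 187, 169 and 163 FPKM in treated and 159.5, 138 and 147 FPKM in control cells. All treated values were above all control values, with means of 173 ± 12.6 and 148 ± 10.6 FPKM in nattokinase and control cells (SD, n = 3 each; log2 fold change 0.22, SE 0.068, 95% confidence interval 0.068 to 0.37, limma adjusted p = 0.080). It passed the test without control replicate 1 (limma adjusted p = 0.026) and with limma-voom (0.015). Hsp90ab1 had 1034, 979 and 1014 FPKM in treated and 1001, 1036 and 1029 FPKM in control cells, which overlapped. Its log2 fold change was −0.019 (95% confidence interval −0.13 to 0.095, limma adjusted p = 0.87), and it was 0.039 after quantile normalization and 0.0027 without nattokinase replicate 2. The ratio of Hsp90ab1 to Hsp90aa1 FPKM was 5.53, 5.78 and 6.23 in treated and 6.27, 7.48 and 7.0 in control cells, a difference that was not tested. Of the stretches of 100 bases in Hsp90aa1 38.0% also occur in pseudogenes, of which Gm12346 had the most reads, 33 to 64 per library against 8188 to 13263 for Hsp90aa1.

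Counted together in the values as deposited, 5 of the 9 tested members had all 3 treated libraries above all 3 controls, and 0 had them below. Over all tested genes these shares were 17.4% and 11.4%. The factors for rescaling to protein-coding totals were 1.012 to 1.013 in treated and 0.982 to 0.9953 in control libraries. Divided by these factors, Hsp90aa1 and Hspa1b overlapped between groups, and the shares over all genes were not counted again.

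**Figure D2:**
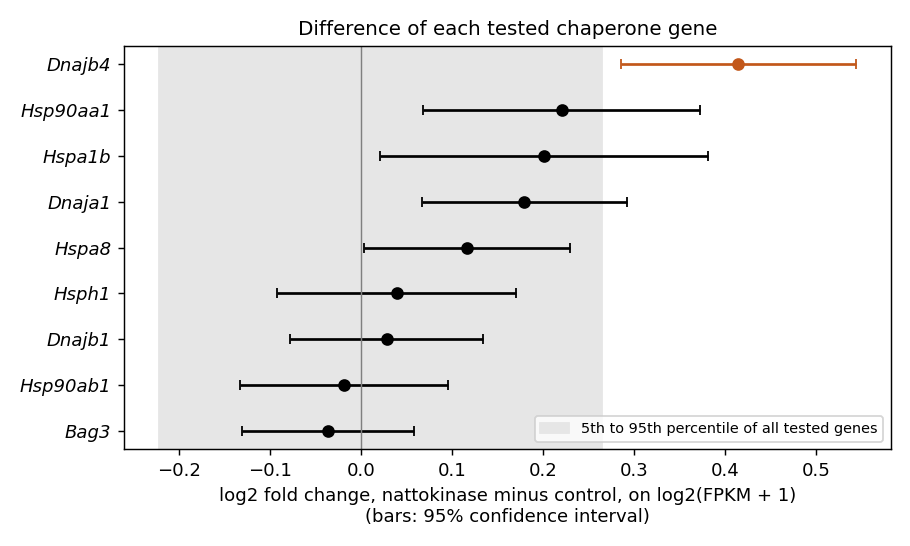
Log2 fold change of the 9 tested chaperone genes, nattokinase minus control on log2(FPKM + 1), with 95% confidence intervals from limma; orange marks an adjusted p under 0.05 and the grey band the 5th to 95th percentile of all tested genes, from −0.22 to 0.26. Dnajb4 at 0.41 lies outside the band, and the other 8 genes lie within it.

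The heat shock element cores differed among the members in the windows from 250 bases before to 50 bases after each RefSeq start site. The table of windows held 7 of the 10 members, without Hspa8, Hsp90aa1 and Hsp90ab1. Only exact matches were counted, so a window without a core may still hold imperfect units. A core of 2 units stood in the windows of 6 of these 7 genes, all but Dnajb1, and in 17.0% of the 27025 genes in the table. A core of 3 units stood in 1 of the 7, Hsph1, and in 0.662% of all genes. In Hspa1a and Hspa1b the core of 2 units began at position −104 from the start site, in Dnaja1 at −124 from the first of 3 start sites, and in Dnajb4 at −14 from one of its starts. Bag3 had it only after its start site. The genes with a core thus included the one that was called and genes whose groups overlapped.

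**Figure D3:**
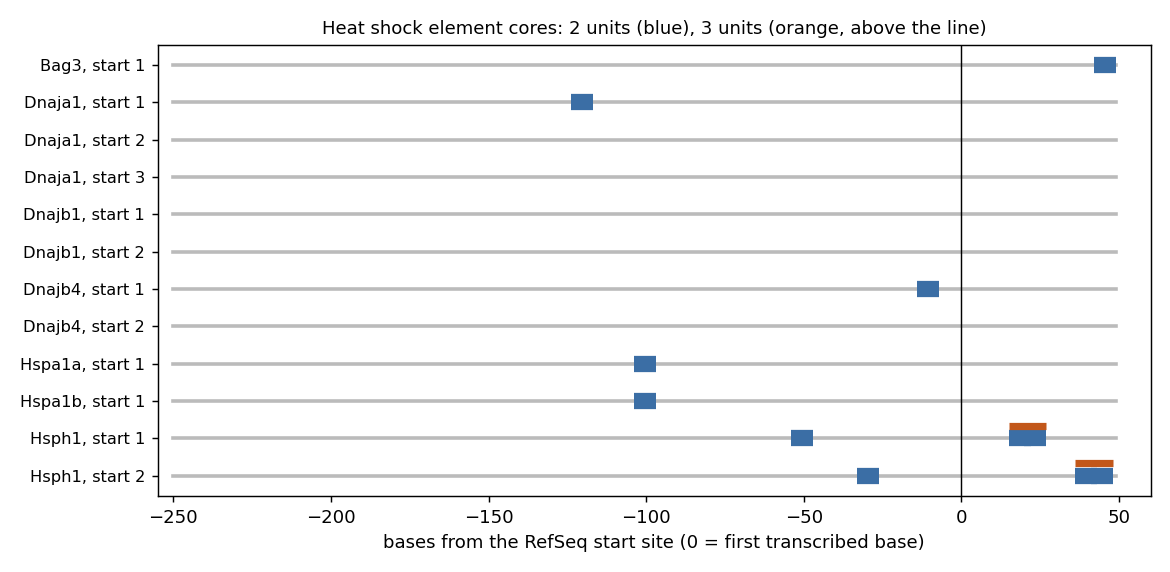
Position of heat shock element cores relative to each RefSeq start site of 7 chaperone genes, in windows from 250 bases before to 50 bases after the first transcribed base at 0; blue marks a core of 2 units and orange, drawn above the line, a core of 3 units. Hspa1a and Hspa1b carry theirs at the same distance, and the 2 windows of Dnajb1 carry no exact match.

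The profile of Dnajb4 over the 6 libraries was set beside those of 4637 protein-coding genes with a mean of at least 10 FPKM. The 5 nearest by root mean square difference of centred log2 values were Cald1, Myof, Ulbp1, Lima1 and Actn1, at 0.028 to 0.041. Cald1 encodes the actin-binding protein caldesmon, Lima1 an actin-bundling LIM protein and Actn1 the actin cross-linker alpha-actinin; Myof encodes the membrane repair protein myoferlin and Ulbp1 a ligand of an immune receptor. Actn1, for example, had 145 ± 2.43 and 109 ± 2.5 FPKM in nattokinase and control cells (SD, n = 3 each), a log2 fold change of 0.41. The likeness describes these 6 libraries, which fall into the 2 groups.

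**Figure D4:**
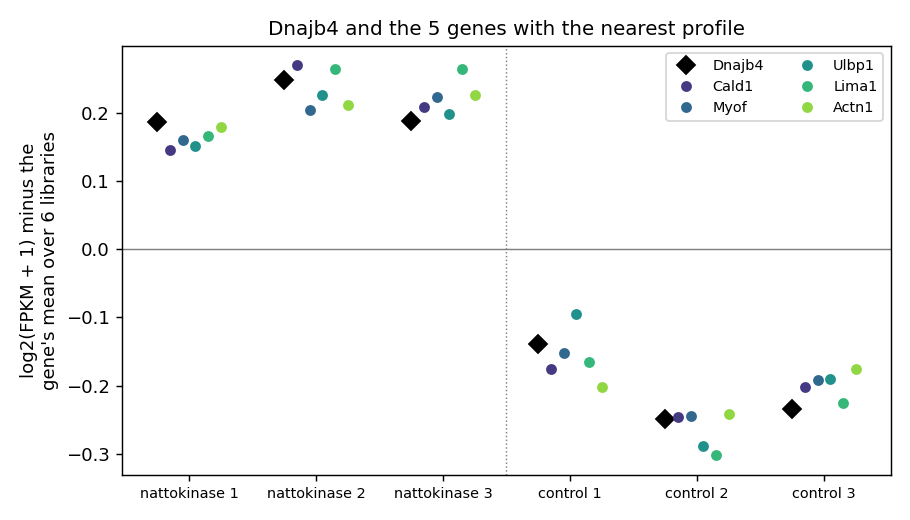
Log2(FPKM + 1) of Dnajb4 (black diamonds) and of the 5 genes with the nearest profile (circles), each minus its own mean over the 6 libraries, with the nattokinase libraries left of the dotted line and the controls right of it. All 6 genes lie above 0 in each treated library and below 0 in each control.

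The other genes of the chaperone network were read from 10 lists with 74 genes, of which 71 were tested. Together 5 were higher and 2 lower, with a median log2 fold change of 0.016, and 15 had an unadjusted p under 0.05. The shares over all tested genes were the 5.61% and 3.24% given above, and 22.9% had an unadjusted p under 0.05. That 22.9% is also the background for the unadjusted counts of each list below. Without control replicate 2 only 3 were higher, and none of the 2 lower ones was called with the replicate number as a block, with no filter or without any 1 of nattokinase replicates 2 and 3 and control replicates 2 and 3.

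Heat shock factors themselves showed no call. Hsf1, the main activator of the response, had 8.90, 8.66 and 8.70 FPKM in treated and 8.08, 8.81 and 8.93 FPKM in control cells, which overlapped (limma adjusted p = 0.85). Its log2 fold change of 0.023 became −0.0087 after rescaling to protein-coding totals and −0.017 without control replicate 1. Hsf2, a second factor of the family, had 5.82, 5.62 and 5.58 FPKM in treated and 5.45, 4.33 and 4.83 FPKM in control cells (limma adjusted p = 0.16, and 0.035 without control replicate 1 and 0.049 with limma-voom). Of the 4 tested genes of this list 1 rose and 0 fell. Ier5, an early response gene whose product is known to promote heat shock factor 1 activity, rose to 28.4 ± 1.45 FPKM in nattokinase cells, against 22.8 ± 0.120 FPKM in control cells (SD, n = 3 each; log2 fold change 0.30, SE 0.048, limma adjusted p = 0.0040). Hsbp1, which encodes a protein that binds the factor, had 59.9 and 62.6 FPKM in the means of treated and control cells (limma adjusted p = 0.63).

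Hspa4, a cytosolic HSP110 protein like Hsph1, had 81.4, 79.0 and 77.4 FPKM in treated and 65.7, 64.0 and 66.9 FPKM in control cells. The groups lay well apart, with a log2 fold change of 0.27 (SE 0.044, limma adjusted p = 0.0043), and it was the 1 of 4 tested genes of its list that rose. Hspa4l and Hspa14, an HSP110 and an HSP70 relative, overlapped between groups (limma adjusted p = 0.65 and 0.54). Of 7 other J-domain genes 0 were called with limma and 0 had an unadjusted p under 0.05. The nearest to the threshold was Dnaja4, at 2.44 ± 0.0515 and 2.09 ± 0.156 FPKM in nattokinase and control cells (SD, n = 3 each; limma adjusted p = 0.23), followed by Dnajb6 and Dnajb2 (0.32 and 0.34).

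Of 8 other HSP70 cochaperone genes 0 were called with limma, and 2 had an unadjusted p under 0.05. St13, which holds HSP70 in its client-bound state, had a log2 fold change of 0.12 (limma adjusted p = 0.12), and Stub1, the ubiquitin ligase that sends HSP70 clients to the proteasome, had one of −0.15 (limma adjusted p = 0.082). Stub1 passed the test after rescaling to protein-coding totals and without control replicate 1 (limma adjusted p = 0.035 in each) and after quantile normalization (0.032). Bag2, an exchange factor, had 8.01 and 6.95 FPKM in the means of treated and control cells (limma adjusted p = 0.38). Of 11 HSP90 cochaperone genes 1 rose and 0 fell. Ppid, which encodes cyclophilin 40, rose to 18.6 ± 0.737 FPKM in nattokinase cells, against 15.5 ± 0.437 FPKM in control cells (SD, n = 3 each; log2 fold change 0.25, SE 0.049, limma adjusted p = 0.013, with 0.055 when control replicate 2 was left out and 0.072 with no filter). Chordc1 and the phosphatase Ppp5c had limma adjusted p of 0.24 and 0.15, the first with a higher and the second with a lower mean in treated cells.

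Small heat shock proteins, which bind unfolding proteins without ATP, had the highest median of the lists, 0.18 over 5 tested genes, of which 2 rose and 0 fell. Hspb6, known for its abundance in muscle, had 13.0, 13.6 and 12.1 FPKM in treated and 10.1, 9.77 and 9.86 FPKM in control cells. The groups did not overlap, with a log2 fold change of 0.35 (SE 0.054, limma adjusted p = 0.0034). Cryab, the alpha-B crystallin gene, had 84.2, 84.8 and 89.2 FPKM in treated and 66.1, 74.0 and 76.8 FPKM in control cells (log2 fold change 0.25, SE 0.060, limma adjusted p = 0.030). Its call was lost without any 1 nattokinase library, without control replicate 2 and with no filter on FPKM, with limma adjusted p between 0.064 and 0.16. Hspb1, the HSP27 gene, had 171 ± 1.61 and 151 ± 9.88 FPKM in nattokinase and control cells (SD, n = 3 each), with all treated values above all controls (limma adjusted p = 0.077, and 0.026 with limma-voom).

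Of 14 genes of the chaperonin CCT and of prefoldin, which fold actin and tubulin, 0 were called with limma and 1 had an unadjusted p under 0.05, Pfdn4 (limma adjusted p = 0.15). Tcp1, a subunit of the chaperonin, had 85.9 ± 5.61 and 79.7 ± 1.81 FPKM in nattokinase and control cells (SD, n = 3 each; limma adjusted p = 0.29), and Cct8 had 99.1 ± 5.06 and 93.9 ± 1.04 FPKM (limma adjusted p = 0.40). Of 6 mitochondrial chaperone genes 0 were called, and 1 had an unadjusted p under 0.05. Hspd1, the HSP60 gene, had 156 ± 9.08 and 142 ± 1.35 FPKM in nattokinase and control cells (limma adjusted p = 0.18), and Hspa9 and Dnaja3 had limma adjusted p of 0.52 and 0.35. Of 8 endoplasmic reticulum chaperone genes 0 rose and 2 fell, Hyou1 and Sdf2l1, with a median of −0.064 over the list. Hyou1, the HSP110 relative of that compartment, had 39.2 ± 1.14 and 44.7 ± 0.510 FPKM in nattokinase and control cells (SD, n = 3 each; limma adjusted p = 0.025, and 0.084 with the replicate number as a block), and the disulfide isomerase Pdia4 had 119 ± 3.45 and 135 ± 5.73 FPKM (limma adjusted p = 0.057). Pdia4 passed the test as lower with a filter of 5 FPKM (limma adjusted p = 0.042), with limma-voom (0.017), after median-of-ratios scaling (0.032), quantile normalization (0.0054) or rescaling to protein-coding totals (0.021), and without control replicate 1 (0.012). Sdf2l1 had 34.3 ± 0.777 and 40.9 ± 3.24 FPKM (limma adjusted p = 0.031, and 0.064 with the block). The HSP70 and HSP90 proteins of that compartment, Hspa5 and Hsp90b1, were not called (limma adjusted p = 0.64 and 0.99).

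Of 4 other genes known to respond to heat shock, 0 were called with limma and 0 had an unadjusted p under 0.05. The polyubiquitin gene Ubb had 394 ± 4.35 and 405 ± 30.2 FPKM in nattokinase and control cells (SD, n = 3 each; limma adjusted p = 0.78). Serpinh1, the collagen chaperone gene, had 787 ± 43.7 and 844 ± 36.4 FPKM (limma adjusted p = 0.36, and 0.013 after quantile normalization).

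**Figure D5:**
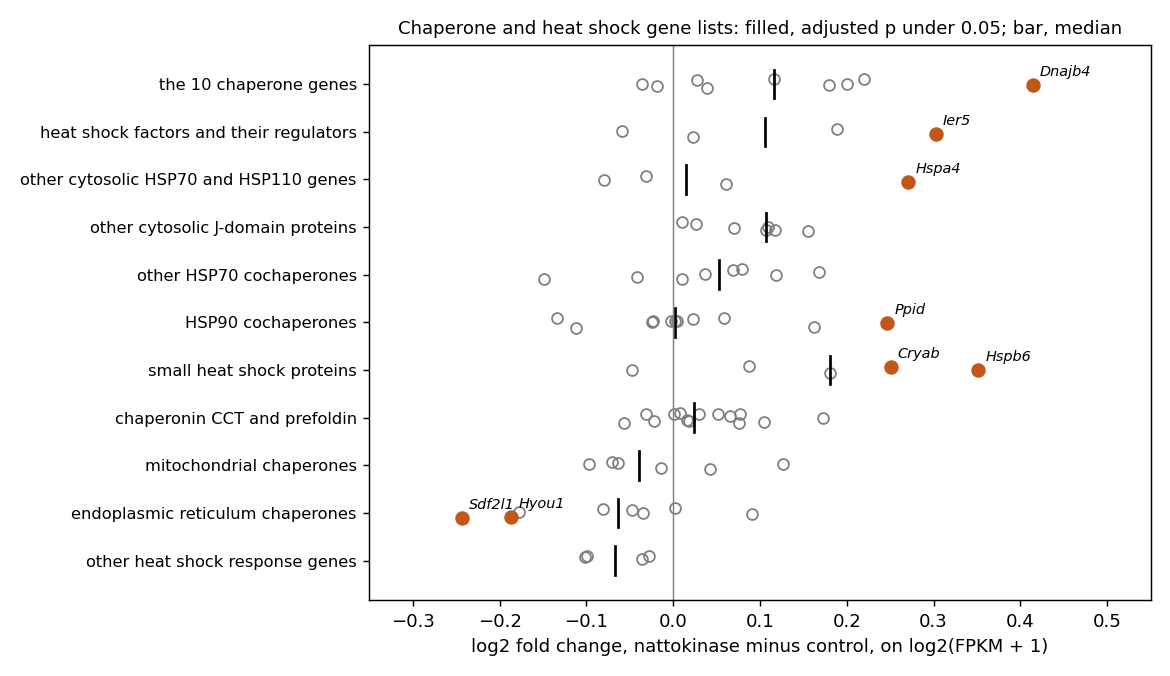
Log2 fold change, nattokinase minus control on log2(FPKM + 1), of the tested genes of the chaperone and heat shock lists, 1 row a list; filled orange points have a limma adjusted p under 0.05 and the vertical bar is the list's median. Dnajb4, Ier5, Hspa4, Ppid, Cryab and Hspb6 are filled on the higher side, and Hyou1 and Sdf2l1 on the lower side.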

How the data were processed

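The deposited values are FPKM for 55536 Ensembl genes in each of 6 files, as found from the values: multiplied by the merged exon length in GENCODE M21 (GRCm38), 99.99% of values above 0 lay within 0.05 of a whole multiple of 1 step per library, which gives the assigned reads. The submitters' processing notes name HISAT2 2.1.0, featureCounts 1.6.0, Trimmomatic 0.38, DESeq2 1.22.1, CASAVA, MultiQC and FastQC and the build GRCh38, with no role or order, although the identifiers are from mouse. How the authors made the FPKM, and the read length, strand use and handling of multiply matching reads, are not given in the sources used here. All identifiers matched GENCODE M21, and coordinates are from it.

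A linear model on group was fitted to log2(FPKM + 1) with limma 3.58.1 in R 4.3.3 (intensity trend, robust prior, two-sided, Benjamini-Hochberg over all tested genes) and was tested on simulated data. Replicates of a group correlated at 0.992 to 0.995 on the log2 scale, and their mean chi-square per gene was 2.43 to 10.7, above counting error. The genes and lists were chosen with earlier results of these data known. In each list the 3 tested genes with the smallest p are named, with Hsf1 and Hsf2 always and 1 gene not reported here. The 5 genes nearest in profile were taken for the member with the largest absolute log2 fold change. The genes that share sequence with members, Hspa5 and Hsp90b1 were named outside this rule, after their values were seen, and so was the core of 2 heat shock element units. Figures were drawn with matplotlib 3.10.9.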

Additional observations from a re-analysis of the deposited data

How the results depend on the processing

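The call of Dnajb4 held under all 16 alternatives, with a log2 fold change of 0.38 to 0.49 and a limma adjusted p of 0.025 or less. The sum of Hspa1a and Hspa1b is among these alternatives and leaves the Dnajb4 values unchanged, so it is no check of that call. Dnajb4 reached the filter of 5 FPKM only through the treated libraries, so its call there adds no support either. The number of chaperone members that rose was 2 with a filter of 5 FPKM, 3 with limma-voom and 1 to 2 over the left-out libraries (2 without control replicate 1 or control replicate 3), and 0 fell under any of these; over all genes 601 rose and 310 fell with that filter and 872 and 462 with limma-voom. Of the other chaperone and heat shock genes 3 rose and 0 fell without the filter on low values, 5 fell after quantile normalization, 4 fell after rescaling to protein-coding totals and 0 fell with the replicate number as a block. Over the left-out libraries 3 to 6 of them rose and 0 to 4 fell. After quantile normalization 547 of all genes rose and 463 fell, and after rescaling to protein-coding totals 478 rose and 497 fell, against 612 and 354 in the main fit. Of all genes 221 rose and 109 fell without the filter, and 328 to 720 rose and 197 to 486 fell over the left-out libraries, with 328 and 198 without nattokinase replicate 2, 344 and 197 without nattokinase replicate 3, 360 and 200 without control replicate 2 and 409 and 209 without control replicate 3. Without control replicate 1, where 2 members rose, 720 of all genes rose and 486 fell. The sign of 5 uncalled genes turned: Hsph1 was −0.014 without control replicate 2, Hsp90ab1 0.039 after quantile normalization and 0.0027 without nattokinase replicate 2, Dnajb1 −0.0060 and Hsf1 −0.0087 after rescaling to protein-coding totals, Hsf1 −0.017 without control replicate 1 and Ubb 0.0050 without control replicate 3. Over the left-out libraries these log2 fold changes ranged from −0.014 to 0.082 for Hsph1, −0.037 to 0.0027 for Hsp90ab1, −0.017 to 0.047 for Hsf1 and −0.099 to 0.0050 for Ubb. The cause was not tested.

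Libraries that share a replicate number did not deviate together (correlations −0.0888, −0.0438 and −0.0586). No pairing by number was thus visible, but whether the numbers mark shared cultures is not stated. With the replicate number as a block Dnajb4 kept its call (limma adjusted p = 0.0076), and 439 genes rose and 249 fell overall. Hspa1a had at most 1 read per library, against 166 to 268 for Hspa1b in the same libraries. Of the stretches of 100 bases in the Hspa1a transcript 56.5% also occur in other genes. What a low level, depth and the handling of reads shared with Hspa1b each contribute to its count was not tested.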
